A study of Mus musculus with 60 samples.

Results

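The genes described here carry, take up, store and release fatty acids: Fabp3, Fabp4, Fabp5, Cd36, Lpl, Acsl1, Plin2, Pnpla2, Abhd5 and Pparg. They were chosen by symbol, as every array probe whose annotated or current gene symbol is a name on this list of 10. The list was made with earlier results of these data known. A probe was found for 9 of them, and 8 could be tested, of 8107 genes tested in all. Acsl1, an enzyme that activates long-chain fatty acids, was not analysed here. Pparg had too few measured cultures for the test.

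The cells were 5 mouse cell lines whose labels name OPMD, oculopharyngeal muscular dystrophy, in which people carry a lengthened alanine repeat in the nuclear poly(A)-binding protein PABPN1 and lose muscle function. D7E carried mutant Pabpn1 at a level labelled high, D7F carried mutant Pabpn1 at a level labelled low (the description of 1 array of D7F culture 1 says high), WTA carried wild-type Pabpn1 at a high level, WTD carried wild-type Pabpn1 at a low level, and IM2 was untransfected. Each line was grown as 3 cultures, and total RNA of each culture was hybridised against a common IM2 reference on 2-colour arrays in both dye orientations, on 2 array parts with different probes. The labels give no treatment, time, mutation, promoter, vector or tissue for the lines, and do not say whether a line is a single clone. Each genotype and level was represented by 1 line, so an effect of the transgene and a property of that line cannot be told apart, and the p-values measure only the spread between cultures of a line.

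All values are log2 ratios of a culture over the IM2 reference, on the reading that the deposited log ratios have base 10. A value of 0 means the same signal as in the reference, and no value shows how strongly a gene is expressed. The number of arrays limits the precision. In such bulk RNA, fewer cells of a type and less RNA per cell cannot be told apart. The quality of the arrays varied: 10 of the 60 arrays had over 20% of their filled values at a limit of the files or under 80% of their rows filled, and 6 of these 10 were IM2 arrays, including all 4 arrays of IM2 culture 1. Pabpn1 itself had mean log2 ratios of 1.61 in D7E, 0.92 in D7F, 2.19 in WTA and 1.43 in WTD, against -0.18 in IM2. The read direction of the ratios rests on that gene, which lies on array part I with all members but Abhd5. Part II, which carries Abhd5, holds no such marker of direction. Fabp7, Elovl5, Fitm1, Col1a2 and Ttn, named below, also lie on part II, and their directions have the same limit.

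Fatty acids enter cells partly through the membrane glycoprotein CD36, after lipoprotein lipase (LPL) has released them from triglyceride in lipoproteins. In the cytosol they are bound by small fatty acid-binding proteins, which are named for the tissues where they were found: FABP3 for heart, FABP4 for adipocytes and FABP5 for epidermis. Fatty acids that are stored as triglyceride lie in lipid droplets coated by perilipins such as PLIN2, and are released by the lipase PNPLA2 with its activator ABHD5. Skeletal muscle uses FABP3 and CD36 to supply fatty acids for oxidation. The nuclear receptor PPARG, with its partner RXR, drives many of these genes in adipocytes, and the receptor binds direct repeats of the hexamer AGGTCA that are spaced by a single base.

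Start-site windows are shown for the members that differed between lines and had a sequence in the RefSeq table of build GRCm38.p6: Fabp3, Cd36, Plin2 and Abhd5. Each window runs from 250 bases before to 50 bases after the annotated start, 5′ to 3′ on the gene's strand, and capitals mark the hexamer AGGTCA, which in these windows reads TGACCT because it lies on the opposite strand. The Fabp3 window is chr4:130308488-130308787 on the plus strand, and the Cd36 window is chr5:17835847-17836146 on the minus strand. The Plin2 window is chr4:86670010-86670309 on the minus strand, and the Abhd5 window is chr9:122351366-122351665 on the plus strand.
Fabp3: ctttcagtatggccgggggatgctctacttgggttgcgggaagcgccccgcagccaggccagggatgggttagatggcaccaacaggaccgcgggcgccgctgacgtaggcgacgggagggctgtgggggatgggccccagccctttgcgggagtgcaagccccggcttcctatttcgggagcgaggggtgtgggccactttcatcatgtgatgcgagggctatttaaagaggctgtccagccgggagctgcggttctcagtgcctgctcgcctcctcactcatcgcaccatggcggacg
Cd36: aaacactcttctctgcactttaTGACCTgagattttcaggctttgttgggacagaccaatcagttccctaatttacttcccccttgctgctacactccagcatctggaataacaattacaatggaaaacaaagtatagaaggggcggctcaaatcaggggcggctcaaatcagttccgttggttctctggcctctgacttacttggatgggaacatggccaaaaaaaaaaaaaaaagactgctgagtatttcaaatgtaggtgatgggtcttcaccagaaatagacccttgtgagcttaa
Plin2: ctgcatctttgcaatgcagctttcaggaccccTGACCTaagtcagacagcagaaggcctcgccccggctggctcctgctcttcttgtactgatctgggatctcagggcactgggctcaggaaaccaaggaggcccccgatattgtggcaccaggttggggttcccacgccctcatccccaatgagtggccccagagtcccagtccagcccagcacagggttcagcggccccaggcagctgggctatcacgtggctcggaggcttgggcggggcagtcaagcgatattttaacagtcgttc
Abhd5: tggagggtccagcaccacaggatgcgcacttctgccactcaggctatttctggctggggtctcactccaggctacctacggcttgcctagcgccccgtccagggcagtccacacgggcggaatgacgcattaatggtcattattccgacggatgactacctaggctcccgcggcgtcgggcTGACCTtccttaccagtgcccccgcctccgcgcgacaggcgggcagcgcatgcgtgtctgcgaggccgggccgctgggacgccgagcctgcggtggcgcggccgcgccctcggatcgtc
The hexamer begins 228 bases before the start in Cd36, 218 before it in Plin2 and 69 before it in Abhd5, and the Fabp3 window holds none. The table held 10 windows for 7 of the members, and none for Fabp4, Fabp5 or Lpl. On either strand, 5 of these 10 windows held AGGTCA, against 16.3% of 32851 windows of the same length in the whole table. The other 2 of the 5 belong to Pparg. A looser direct repeat, AGGNCA followed by any base and by AGGNCA again (N is any base), was found in 0 of the 10 windows and in 0.381% of all windows. A match is a description of these letters and not a binding site.

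Of the 8 tested genes, 4 differed between transfected lines and IM2: Cd36, Fabp3 and Plin2 rose and Fabp5 fell. Fabp5 had the largest difference of the 8, with a log2 difference of -2.13 (SE 0.26). Cd36 was higher by 0.95 (SE 0.11), Fabp3 by 0.76 (SE 0.12) and Plin2 by 0.74 (SE 0.20). The limma contrast compared the mean of the 4 transfected lines with IM2, with Benjamini-Hochberg adjustment over all 9719 probes and a threshold of 0.05. Over all probes this contrast called 6.4% higher and 8.83% lower. The median difference of the 8 genes was 0.20, against 0.03 over all probes. Since the list was made with earlier results known, comparisons with all probes describe the list and do not test it. Fabp5 ranked 8th from the bottom among the 9719 differences, and Cd36 ranked 259th from the top. In the test for any difference among the 5 lines, Cd36, Fabp3, Fabp5 and Abhd5 passed, where 10.2% of all probes did. Every comparison with IM2 below shares the same 3 IM2 cultures.

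**Figure D1:**
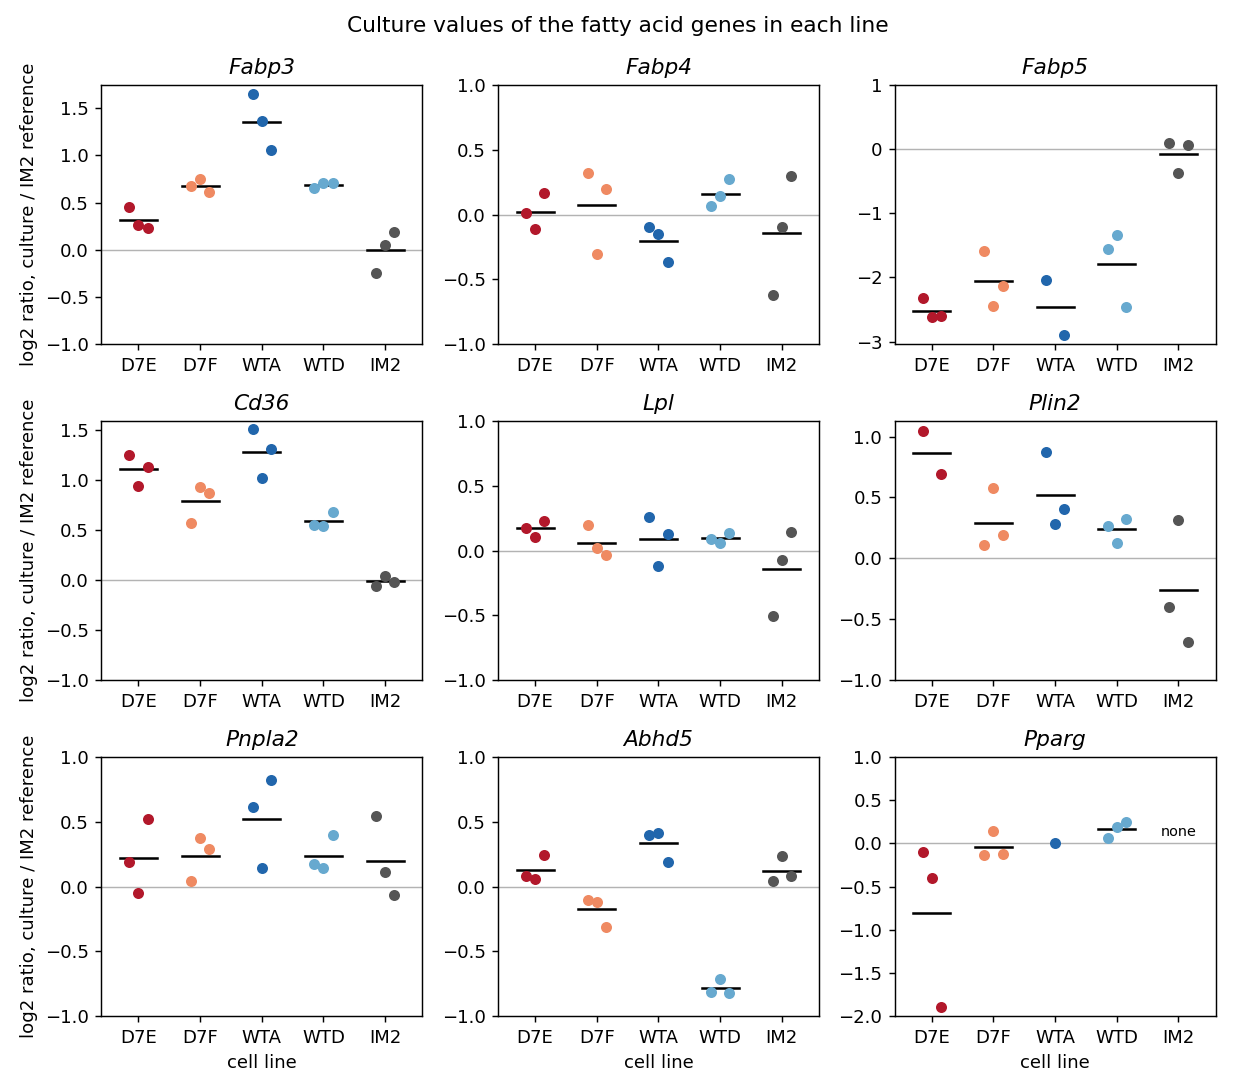
Log2 ratio of culture over IM2 reference (vertical axis, scale set per gene) for 9 genes in the 5 lines (horizontal axis). Each point is a culture, the mean of its 2 dye arrays, and the black bar is the line mean. All transfected cultures lie above the IM2 cultures for Cd36 and Fabp3 and below them for Fabp5, and the WTD cultures lie lowest for Abhd5.

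Fabp5, the epidermal fatty acid-binding protein, was low in every transfected line. Its log2 ratios were -2.33, -2.62 and -2.61 in the D7E cultures, -1.59, -2.44 and -2.13 in D7F, -2.04 and -2.89 in WTA, and -1.56, -1.34 and -2.47 in WTD, against 0.09, -0.37 and 0.06 in IM2. No transfected culture overlapped the IM2 cultures, while the 4 transfected lines overlapped each other. WTA culture 1 has no value, because 1 of its arrays lay at the lower limit of the file and was dropped, so that the WTA value rests on 2 cultures. In limma, Fabp5 was lower than in IM2 by a log2 difference of -2.44 in D7E (SE 0.32, adjusted p = 0.00104), -1.98 in D7F (SE 0.32, adjusted p = 0.00579), -2.39 in WTA (SE 0.36, adjusted p = 0.00223) and -1.71 in WTD (SE 0.32, adjusted p = 0.0110). For the 4 lines together the difference of -2.13 is a 4.38-fold lower signal (adjusted p = 0.000432). The ratio was negative on 23 of 23 measured arrays of transfected cultures. Its size differed between the dyes: the array with the culture in Cy3 read lower than the array with Cy5 by a median of -0.79 in the transfected cultures, and the gap reached 2.56 in D7F culture 2. The D7F call was lost with limit values kept (adjusted p = 0.105) and on Cy5 arrays alone (adjusted p = 0.108). The WTD call was lost with limit values kept (adjusted p = 0.131), on Cy3 arrays alone (adjusted p = 0.170), with poor arrays left out (adjusted p = 0.0596) and with only WTD and IM2 fitted (adjusted p = 0.0605). The WTA call was lost with only WTA and IM2 fitted (adjusted p = 0.0723).

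The neighbours of Fabp5 did not share this size of difference. On mouse chromosome 3 the gene lies beside Pmp2, which encodes another member of the binding protein family and is known from peripheral nerve myelin, and Fabp9 and Pmp2 separate it from Fabp4. Pmp2 had a difference of -0.39 (SE 0.15, adjusted p = 0.0937) between transfected lines and IM2. Impa1, an enzyme of inositol metabolism on the far side of Fabp4, had 0.17 (SE 0.12, adjusted p = 0.364). Zfp704, a zinc finger gene on the other side of Fabp5, had 0.75 (SE 0.45, adjusted p = 0.281). Fabp9 and Fabp12 were not tested, and the differences between these neighbours and Fabp5 were not tested.

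Fabp4, the adipocyte form and a classical target of PPARG, passed no comparison. Its ratios were 0.01, -0.11 and 0.16 in D7E, 0.32, -0.30 and 0.20 in D7F, -0.09, -0.15 and -0.37 in WTA, and 0.07, 0.14 and 0.27 in WTD, against -0.62, -0.10 and 0.30 in IM2. Every transfected culture lay within the range of the IM2 cultures, apart from the highest D7F culture. The difference between transfected lines and IM2 was 0.15, with a 95% interval of -0.22 to 0.52 (adjusted p = 0.582). The interval excludes a fall of the size measured for Fabp5.

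Fabp3, the heart and muscle form, was higher in transfected cultures than in IM2, and unevenly so. Its ratios were 0.45, 0.26 and 0.23 in D7E, 0.67, 0.75 and 0.61 in D7F, 1.65, 1.36 and 1.06 in WTA, and 0.65, 0.71 and 0.71 in WTD, against -0.24, 0.05 and 0.19 in IM2. The lines stood in the order WTA, WTD, D7F, D7E and IM2. WTD and D7F overlapped, and every other pair of neighbours in this order had no overlap. In limma the difference from IM2 was 1.36 in WTA (SE 0.15, adjusted p = 0.000281), 0.69 in WTD (SE 0.15, adjusted p = 0.0193), 0.68 in D7F (SE 0.15, adjusted p = 0.0244) and 0.32 in D7E (SE 0.15, adjusted p = 0.209), which did not pass. The 4 lines together were 1.69-fold higher (adjusted p = 0.00169), with a positive ratio on 24 of 24 transfected arrays. The 2 dye arrays of a culture differed by a median of 0.09, the smallest gap among the 8 tested genes. The WTD call was lost without any WTD culture or without IM2 culture 1 (adjusted p = 0.0506 to 0.0661), and the D7F call without any D7F culture or without IM2 culture 1 (adjusted p = 0.0584 to 0.102). Over all alternative settings the WTA call passed in 25 of 26, the WTD call in 17 of 26 and the D7F call in 16 of 26.

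Markers of muscle cells moved in the same comparison as Fabp3. Of 17 listed muscle genes, 15 were tested and 7 rose in transfected lines, with a median difference of 0.46 over the 15 genes (probes of a gene averaged). Over all probes 6.4% were called higher. The 3 with the lowest adjusted p were Myf6, a regulator of muscle differentiation (0.54), the sarcomere gene Ttn (0.78) and the acetylcholine receptor subunit gene Chrna1 (0.34), and the other 4 had differences of 0.31 to 0.74. Ttn was called on 1 of its 4 probes, and another of them had -0.44 (adjusted p = 0.0569) and was lower in D7E than in IM2 by -0.72 (adjusted p = 0.0228). By line, the median ratio of the muscle probes was 0.28 in D7E, 0.38 in D7F, 0.39 in WTA and 0.39 in WTD, against -0.01 in IM2. Without IM2 culture 1, only Myf6 of the 7 still passed (0.47, adjusted p = 0.0282). Myf6 averaged 0.99 in WTA and 0.76 in D7F, but 0.21 in D7E and 0.15 in WTD, against -0.02 in IM2. By single line it was called against IM2 in WTA and D7F only. Of 5 tested fibroblast markers 3 fell, where 8.83% of all probes did: the collagen genes Col3a1 (-1.44), Col1a1 (-1.22) and Col1a2 (-1.35). Over all 7 fibroblast probes, which include the uncalled Fn1 and S100a4, the median was 0.05 in IM2 and -0.93 to -0.30 in the transfected lines. The part of these markers in the Fabp3 and Cd36 differences was not tested.

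Cd36, the fatty acid uptake receptor, was higher in every transfected culture than in any IM2 culture. Its ratios were 1.26, 0.95 and 1.13 in D7E, 0.57, 0.94 and 0.88 in D7F, 1.52, 1.03 and 1.32 in WTA, and 0.56, 0.54 and 0.69 in WTD, against -0.05, 0.05 and -0.01 in IM2. The lines stood in the order WTA, D7E, D7F, WTD and IM2, with overlap between WTA and D7E and between D7F and WTD. In limma the difference from IM2 was 1.29 in WTA (SE 0.14, adjusted p = 0.000277), 1.12 in D7E (SE 0.14, adjusted p = 0.000715), 0.80 in D7F (SE 0.14, adjusted p = 0.00725) and 0.60 in WTD (SE 0.14, adjusted p = 0.0271). For the 4 lines together the signal was 1.94-fold higher (adjusted p = 0.000268), with a positive ratio on 24 of 24 transfected arrays. The WTD call was lost without any WTD culture, without IM2 culture 1 and without IM2 culture 3 (adjusted p = 0.0648 to 0.0980). Over all alternative settings the D7E call passed in 26 of 26, the WTA call in 25 of 26, the D7F call in 23 of 26 and the WTD call in 16 of 26.

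Lpl, the lipase that frees fatty acids for uptake, passed no comparison. Its ratios were 0.17, 0.11 and 0.23 in D7E, 0.20, 0.02 and -0.04 in D7F, 0.26, -0.12 and 0.13 in WTA, and 0.09, 0.06 and 0.14 in WTD, against -0.51, -0.07 and 0.15 in IM2. IM2 culture 1 was the lowest, and the other 2 IM2 cultures lay within the transfected range. The difference of 0.25 had a 95% interval of -0.02 to 0.52 (adjusted p = 0.193).

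**Figure D2:**
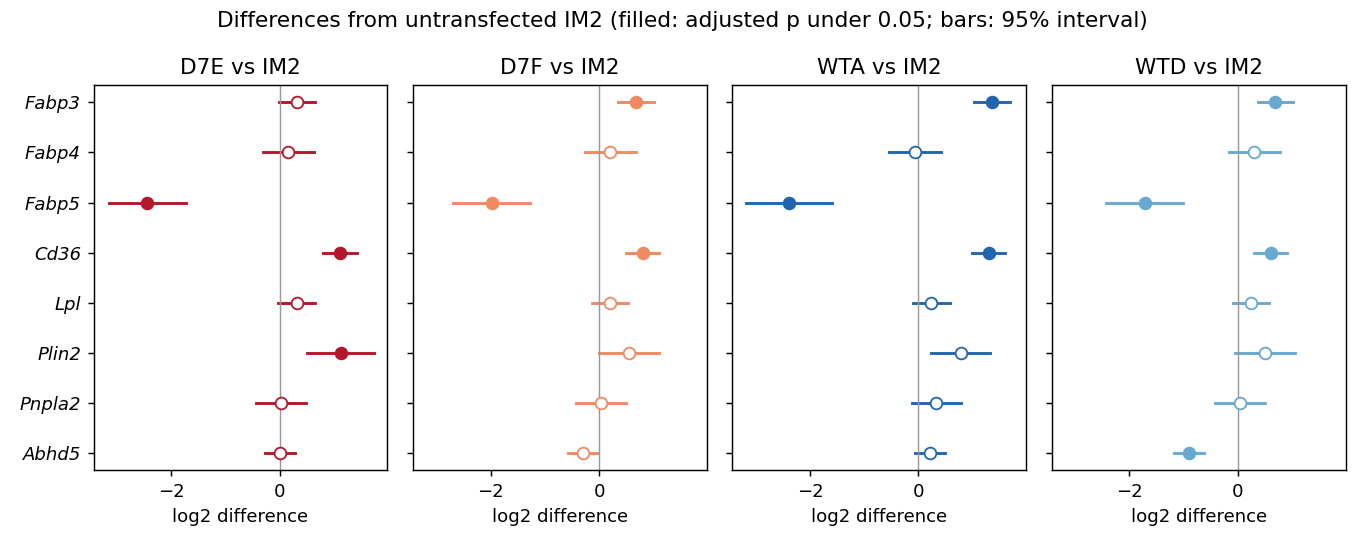
Log2 difference from IM2 (horizontal axis) of the 8 tested genes in each transfected line, 1 panel a line. Points are limma estimates with 95% intervals, filled where the adjusted p is under 0.05. Fabp5 is filled on the left and Cd36 on the right in all 4 panels, Fabp3 in all but D7E, Plin2 in D7E only and Abhd5 in WTD only.

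By line, 3 of the 8 genes were called in D7E against IM2, where 4.13% of all probes were called higher and 8.21% lower: Cd36, Plin2 and Fabp5. In D7F they were Fabp3, Cd36 and Fabp5, with 1.58% of all probes higher and 2.91% lower. The same genes were called in WTA, with 5.17% of all probes higher and 6.37% lower. In WTD, Fabp3 and Cd36 were called higher and Fabp5 and Abhd5 lower, with 2.08% of all probes higher and 4.95% lower. Without IM2 culture 1 the counts were 2 in D7E, 2 in D7F, 3 in WTA and 2 in WTD.

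Plin2, a lipid droplet coat protein whose level usually follows the amount of stored lipid, had a less certain difference. Its ratios were 1.04 and 0.69 in D7E, 0.11, 0.58 and 0.19 in D7F, 0.87, 0.28 and 0.40 in WTA, and 0.26, 0.13 and 0.32 in WTD, against -0.40, 0.31 and -0.69 in IM2. D7E culture 2 has no value, since 1 of its arrays was empty at this probe. D7E lay above all IM2 cultures, and the other lines overlapped IM2 culture 2. The difference of the 4 lines was 0.74 (adjusted p = 0.0304) and that of D7E alone 1.13 (SE 0.28, adjusted p = 0.0242). Both depended on the dye. On Cy5 arrays alone they were 1.09 (adjusted p = 0.0974) and 1.65 (adjusted p = 0.0708). On Cy3 arrays alone they were 0.33 (adjusted p = 0.652) and 0.36 (adjusted p = 0.763). The call for the 4 lines was lost without D7E culture 1 (adjusted p = 0.0545), IM2 culture 1 (adjusted p = 0.124) or IM2 culture 3 (adjusted p = 0.146), and it passed in 14 of 24 alternative settings. The D7E call was lost without D7E culture 1 (adjusted p = 0.141), D7E culture 3 (adjusted p = 0.0524), IM2 culture 1 (adjusted p = 0.0688) or IM2 culture 3 (adjusted p = 0.0695). Without IM2 culture 2, Plin2 also passed in WTA (1.06, adjusted p = 0.00972), WTD (0.78, adjusted p = 0.0422) and D7F (0.84, adjusted p = 0.0389).

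Pnpla2, the lipase that starts triglyceride breakdown in droplets, passed no comparison. Its ratios were 0.19, -0.05 and 0.52 in D7E, 0.04, 0.37 and 0.29 in D7F, 0.61, 0.14 and 0.82 in WTA, and 0.17, 0.14 and 0.40 in WTD, against 0.54, 0.11 and -0.07 in IM2. All 5 lines overlapped. The difference between transfected lines and IM2 was 0.11, with a 95% interval of -0.25 to 0.47 (adjusted p = 0.703).

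Abhd5, the activator of that lipase, stood apart in WTD. Its ratios were 0.08, 0.06 and 0.24 in D7E, -0.10, -0.12 and -0.31 in D7F, 0.40, 0.41 and 0.19 in WTA, and -0.81, -0.71 and -0.82 in WTD, against 0.05, 0.23 and 0.08 in IM2. The lines stood in the order WTA, D7E, IM2, D7F and WTD, with overlap between WTA and D7E and between D7E and IM2, and no overlap below that. WTD differed from IM2 by -0.90 (SE 0.13, adjusted p = 0.00125), a 1.87-fold lower signal that passed in 26 of 26 alternative settings. D7F differed by -0.30 (SE 0.13, adjusted p = 0.208), D7E by 0.01 (adjusted p = 0.984) and WTA by 0.21 (adjusted p = 0.307). All 6 WTD arrays had a negative ratio, from -1.08 to -0.45. Abhd5 lies on part II, whose direction has no marker, and with the part II ratios read the other way WTD would be the highest line, followed by D7F, IM2, D7E and WTA, with the same sizes and adjusted p-values.

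**Figure D3:**
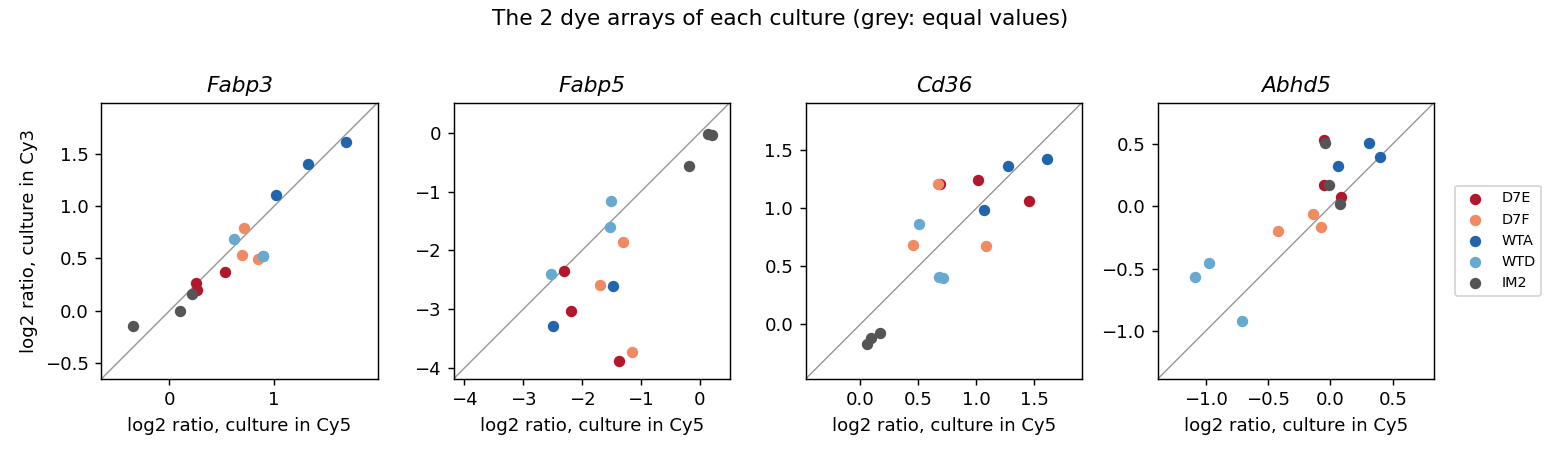
Log2 ratio of each culture on the array with the culture in Cy5 (horizontal axis) and in Cy3 (vertical axis) for Fabp3, Fabp5, Cd36 and Abhd5, coloured by line. The grey line marks equal values. Fabp3 lies along the line, and several transfected cultures lie well below it for Fabp5, by up to 2.56.

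Pparg, the receptor, could not be compared with IM2. Its ratios were -0.11, -0.40 and -1.90 in D7E, -0.13, 0.14 and -0.13 in D7F, 0.01 in the only measured WTA culture, and 0.06, 0.19 and 0.24 in WTD. No IM2 culture was measured with both dyes. D7E culture 3 was far below the other cultures, and the D7E mean of -0.80 had an SD of 0.96 (n = 3). When 1 dye array per culture was accepted, the difference between transfected lines and IM2 was 1.38 (SE 0.42, adjusted p = 0.0878). The IM2 side then rested on Cy5 arrays alone, at -2.15, -0.50 and -2.25. The Cy3 arrays of IM2 cultures 1 and 2 lay at the upper limit and were dropped, and that of culture 3 was empty. Of the transfected cultures, 10 had both dyes, so a dye effect and a line difference cannot be told apart here.

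Mutant and wild-type lines were compared over both levels, and 0 of the 8 genes passed in limma, where 0.195% of all probes did. Pabpn1 itself averaged 1.26 in the mutant lines and 1.81 in the wild-type lines, so its level was not equal in this comparison. Unadjusted p-values were under 0.05 for 2 of the 8, Fabp3 and Abhd5, and for 649 of all 9719 probes. Fabp3 averaged 0.50 in the mutant lines and 1.02 in the wild-type lines, a difference of -0.53 (SE 0.11, adjusted p = 0.101), with overlap between the groups. It passed without WTA culture 3 (-0.60, adjusted p = 0.0257). For Cd36 the difference was 0.01, with a 95% interval of -0.21 to 0.23, and for Fabp5 it was -0.16, with an interval of -0.69 to 0.37.

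The genotypes were also compared at each labelled level. The Pabpn1 signal was lower in the mutant line of both pairs, by -0.58 in D7E against WTA and by -0.52 in D7F against WTD. The cultures of a pair did not overlap for Pabpn1, so genotype and Pabpn1 level cannot be told apart in these comparisons. Between the lines labelled high, D7E against WTA, 1 of the 8 genes was called, where 1.64% of all probes were. It was Fabp3, with -1.04 (SE 0.15, adjusted p = 0.00652), a 2.06-fold lower signal in D7E with no overlap between the cultures. Of the 15 tested muscle markers, 1 was called in the same comparison, Myf6, which was also lower in D7E (-0.77, adjusted p = 0.0121). Between the lines labelled low, D7F against WTD, 0 of the 8 passed in limma, where 0.453% of all probes did. The unadjusted p was under 0.05 for 1 of the 8, Abhd5, and for 706 of all 9719 probes. Abhd5 was higher in D7F by 0.61 (SE 0.13, adjusted p = 0.0556) with no overlap, and it passed without WTA culture 3 (adjusted p = 0.0493). Fabp3 had a difference of -0.01 between D7F and WTD, with a 95% interval of -0.34 to 0.32.

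Between the lines labelled high and the lines labelled low, 1 of the 8 genes was called, where 0.381% of all probes were. Abhd5 averaged 0.23 in the high lines and -0.48 in the low lines, a difference of 0.71 (SE 0.09, adjusted p = 0.00233) with no overlap. Cd36 averaged 1.20 in the high lines and 0.70 in the low lines, also with no overlap, but its difference of 0.50 (SE 0.10, adjusted p = 0.0683) did not pass. It passed without WTA culture 2 (0.57, adjusted p = 0.0235). For Fabp5 the difference was -0.57, with a 95% interval of -1.10 to -0.04 (adjusted p = 0.608). For Plin2 it was 0.43, with an interval of 0.02 to 0.84 (adjusted p = 0.616). Unadjusted p-values were under 0.05 for 4 of the 8, these 2 with Abhd5 and Cd36, and for 766 of all 9719 probes. Pabpn1 itself averaged 1.90 in the high lines and 1.17 in the low lines, with overlap between the groups.

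The difference between high and low lines was not the same in both genotypes for 2 of the 8 genes, Fabp3 and Abhd5, by the interaction contrast, which called 2.37% of all probes. For Fabp3 the high line was below the low line by -0.36 in the mutant pair (D7E minus D7F) and above it by 0.67 in the wild-type pair (WTA minus WTD). For Abhd5 the high line was above the low line in both pairs, by 0.30 in the mutant pair and 1.12 in the wild-type pair. Set out as WTD with D7E against WTA with D7F, each side as its mean, the contrast was -0.52 for Fabp3 (SE 0.11, adjusted p = 0.0311) and -0.41 for Abhd5 (SE 0.09, adjusted p = 0.0343). Each call passed in 10 of 25 alternative settings. Among the muscle markers Myf6 passed this contrast too, with -0.69 (adjusted p = 0.00147), and its part in the Fabp3 value was not tested. The Fabp3 call was lost without WTA culture 1 or 2, any WTD culture, D7E culture 2 or 3, or D7F culture 1 or 2 (adjusted p = 0.0503 to 0.0930), and the Abhd5 call without WTA culture 1 or 2, any WTD culture, D7E culture 1 or 2, or D7F culture 1 or 2 (adjusted p = 0.0590 to 0.0950).

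Other genes of fatty acid handling were taken from 6 lists, in the comparison of transfected lines with IM2, where 6.4% of all probes were called higher and 8.83% lower. Of 12 tested genes of uptake, transport and activation, 1 rose and 4 fell. Acsl4, an enzyme that activates arachidonate and similar fatty acids, was higher by 0.47 (adjusted p = 0.0205). The caveolar protein gene Cav1 was lower by -1.24 (adjusted p = 0.00439), the lipoprotein receptor gene Vldlr by -0.56 (adjusted p = 0.00271), the transport protein gene Slc27a3 by -0.47 (adjusted p = 0.0167) and the brain-type binding protein gene Fabp7 by -1.61 (adjusted p = 0.0203). Cav1 averaged -2.25 in D7E, -0.61 in D7F, -0.75 in WTA and -1.29 in WTD, against 0.02 in IM2, and so was lowest in D7E. The calls of Acsl4 (adjusted p = 0.122), Slc27a3 (adjusted p = 0.0795) and Fabp7 (adjusted p = 0.101) were lost without IM2 culture 1.

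Of 10 tested genes of lipolysis and its regulation, 1 rose and 3 fell. The 3 that fell encode inhibitors of lipases: Angptl4, a secreted inhibitor of lipoprotein lipase, was lower by -1.36 (SE 0.18, adjusted p = 0.000607), and the PNPLA2 inhibitors Hilpda and G0s2 by -1.47 (SE 0.21, adjusted p = 0.00186) and -0.68 (SE 0.20, adjusted p = 0.0370). Angptl4 averaged -1.46 in D7E, -1.20 in D7F, -1.75 in WTA and -1.40 in WTD, against -0.09 in IM2. Hilpda averaged -1.47 in D7E, -0.94 in D7F, -1.49 in WTA and -1.01 in WTD, against 0.25 in IM2. Both were called in every transfected line on its own. The lipases themselves, Lpl and Pnpla2, passed no comparison with the ratios as read. Mgll, the monoglyceride lipase, was higher by 1.21 (adjusted p = 0.0182), but its call was lost without IM2 culture 1 (0.67, adjusted p = 0.0713) or IM2 culture 3 (1.28, adjusted p = 0.0515). The G0s2 call was lost without D7E culture 2, D7F culture 2 or 3, or IM2 culture 1 or 3 (adjusted p = 0.0527 to 0.152).

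**Figure D4:**
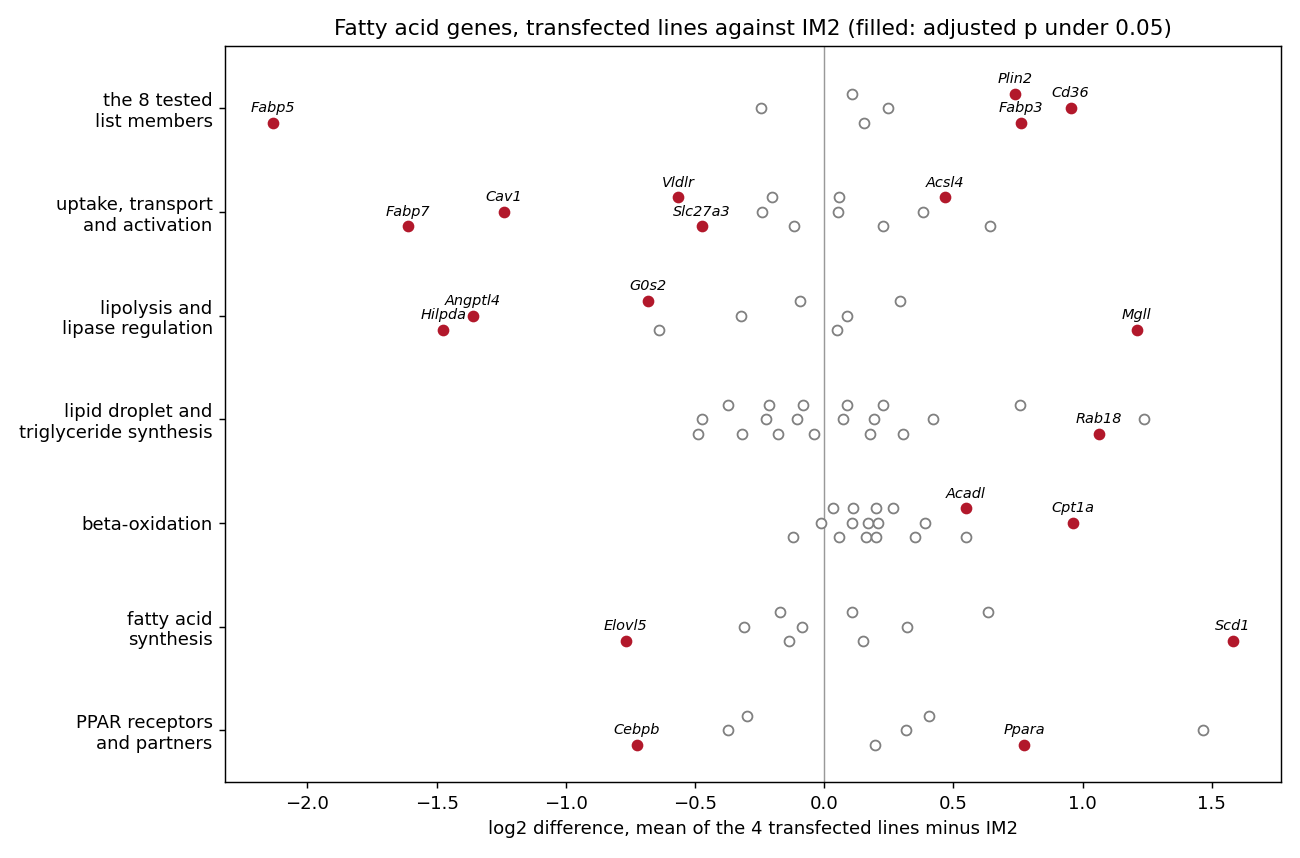
Log2 difference between the mean of the 4 transfected lines and IM2 (horizontal axis) for the tested probes of the named genes and of 6 lists of fatty acid genes (rows). Each point is a probe, filled and named where the adjusted p is under 0.05. Filled points lie on both sides of 0 in the rows of uptake, lipolysis, synthesis and receptors, and only to the right of 0 in the droplet and beta-oxidation rows.

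The lists of droplet formation, oxidation, synthesis and receptors were counted in the same comparison. Of 20 tested genes of lipid droplets and triglyceride synthesis, 1 rose, the droplet GTPase gene Rab18 (1.07, adjusted p = 0.0329), and the median over the list was 0.02. Of 17 tested genes of beta-oxidation, 2 rose, Cpt1a (0.96, adjusted p = 0.0350), which encodes the carnitine palmitoyltransferase that admits fatty acids to mitochondria, and Acadl (0.55, adjusted p = 0.0406), a long-chain acyl-CoA dehydrogenase, with a list median of 0.20. Of 10 tested genes of fatty acid synthesis, the desaturase gene Scd1 rose (1.58, adjusted p = 0.0206) and the elongase gene Elovl5 fell (-0.77, adjusted p = 0.00461). Of 8 tested PPAR receptors and partners, Ppara rose (0.78, adjusted p = 0.0362) and Cebpb, a transcription factor of early adipocyte differentiation, fell (-0.72, adjusted p = 0.00138).

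Several of these differences came with a low ratio in the IM2 cultures themselves, although IM2 was also the reference. The IM2 mean was -1.88 for Scd1, -0.71 for Mgll, -0.55 for Rab18, -0.49 for Cpt1a and -0.38 for Ppara, while it was -0.01 for Cd36, -0.0012 for Fabp3 and -0.08 for Fabp5. Without IM2 culture 1 the calls of Scd1 (1.39, adjusted p = 0.0978), Rab18 (0.85, adjusted p = 0.168), Cpt1a (0.50, adjusted p = 0.196), Acadl (0.60, adjusted p = 0.0851) and Ppara (0.90, adjusted p = 0.0606) were lost. Leaving out other single cultures ended the calls of Acadl, Ppara, Rab18, Cpt1a and Scd1 too, with adjusted p-values up to 0.207. The calls of Elovl5 and Cebpb held without any single culture. The direction of these genes also rests on the direction of the IM2 arrays, which have no marker: with their sign turned, Scd1 was lower in transfected lines (-2.18, adjusted p = 0.00430), and Mgll (-0.20), Acsl4 (-0.18), Rab18 (-0.03) and Cpt1a (-0.02) had negative differences that did not pass. Under the same change Cd36, Fabp3 and Fabp5 kept their signs and calls. Plin2 kept its sign and lost its call in the transfected lines (0.22, adjusted p = 0.469) and in D7E (0.61, adjusted p = 0.176). Pnpla2 (0.72, adjusted p = 0.0414) and Abhd5 (0.45, adjusted p = 0.0321) newly passed in WTA against IM2.

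Genes that differed among the 5 lines were also counted for the lists, by the test that called 10.2% of all probes. Those passing were 3 of 12 genes of uptake, transport and activation, 2 of 10 of lipolysis and 2 of 20 of droplets. In the other lists they were 1 of 17 genes of beta-oxidation, 1 of 10 of synthesis and 1 of 8 of PPAR receptors and partners. Beyond the genes named above, Slc25a20, the mitochondrial acylcarnitine carrier, passed the test for any difference (adjusted p = 0.0153), with means of 0.35 in D7E, 0.0013 in D7F, 1.01 in WTA and 0.33 in WTD, against 0.22 in IM2. So did Fitm1, a muscle protein of droplet formation (adjusted p = 0.00931), at -0.46 in D7E, 0.36 in D7F, 0.69 in WTA and -0.34 in WTD, against -0.03 in IM2. Plin4, another droplet coat protein gene, passed with adjusted p = 0.0392 and was lower in D7E than in WTA by -1.16 (adjusted p = 0.0386). Fitm1 was also lower in D7E than in WTA, by -1.15 (adjusted p = 0.0149), as Fabp3 was. Fitm1 lies on part II, so this shared direction rests on the read direction of part II, which has no marker.

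Of 13 listed adipocyte markers 6 were tested, and 1 rose, where 6.4% of all probes did: Car3 (0.91, adjusted p = 0.0437), a carbonic anhydrase that skeletal muscle also expresses. Car3 averaged 1.17 in D7E, 0.86 in WTA and 1.19 in WTD, but -0.06 in D7F, against -0.12 in IM2. Its call passed in 7 of 25 alternative settings and was lost without IM2 culture 1 (1.07, adjusted p = 0.0719) among others. The median difference of the adipocyte list was 0.12. Of the endothelial markers 3 of 9 were tested and 0 passed in limma, and no macrophage marker was tested. Cd36 is also found on endothelial cells and macrophages, and the part of such cells in its difference was not tested.

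The genes whose pattern over the cultures was most like each member's were taken from the same array part, as the 2 highest Pearson correlations over at least 12 cultures. For Cd36 they were Sucla2, a subunit of succinyl-CoA synthetase (r = 0.961), and Pdcd4, an inhibitor of translation (r = 0.947), over 15 cultures. For Fabp5 they were Cks1b, a cyclin kinase subunit (r = 0.975), and Muc13, a mucin (r = 0.959), over 14 cultures. For Fabp3 they were Ank3, an ankyrin (r = 0.908), and Cryab, a small heat shock protein of muscle (r = 0.900), over 15 cultures. For Abhd5 they were Fbxo5, a cell cycle regulator (r = 0.885), and Gpx7, a glutathione peroxidase (r = 0.815, with a Spearman rho of 0.307). These values are descriptions chosen as the highest among 4024 to 4180 probes, and the cultures compared share arrays and the reference.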

How the data were processed

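Expression was measured on 60 2-colour arrays, 30 on each of 2 parts, from 15 cultures of 5 lines. The authors deposited each array as log ratios of its channels without stating the base, read here as log10 because the values stop exactly at -2 and 2 (a ratio of 100). They were multiplied by 3.3219 to give log2 ratios. Folds and log2 sizes hold only for that base. How arrays were scanned, corrected and normalised is not given in the sources used here. Values at a limit were dropped, and a culture was the mean of its 2 dye arrays, both required. Groups and dyes came from titles and channel sources. The titles and channel sources disagree on the dye for WTA culture 3 on part I, and the channel sources were used. For 1 part I array of D7F culture 1 the description says high where that line's other part I descriptions say low, and the array was kept with its line. Ratios were read as culture over reference from Pabpn1 on part I.

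Identical duplicate rows were collapsed (16416 rows to 7600 probes on part I, 15552 to 14326 on part II), and 109 and 112 human control probes were left out. Symbols came from the platform annotation, matched by Entrez identifier to a RefSeq gene table of GRCm38.p6 for 6722 probes on part I and 9239 on part II. Probes with values for 2 or more cultures in each line were fitted with limma 3.58.1 in R 4.3.3, each part on its own with all 5 lines in 1 model (lmFit, eBayes), and p-values were adjusted by Benjamini-Hochberg over both parts (9719 probes). The code was tested on simulated data. Named beside the members are at most 3 genes per list and direction with the lowest adjusted p among those passing, in the transfected and any-line tests, and the 2 most alike genes by Pearson r. Fabp7, the 4th uptake gene that fell, and genes named for other comparisons (Plin4, Fitm1, Myf6 and Ttn) were chosen after their values were seen. The members and lists were chosen with earlier results of these data known. Alternatives covered the limit values, centring, scaling, dyes, missing arrays, array quality, the sign of IM2 arrays, a replicate block and each culture left out.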

Additional observations from a re-analysis of the deposited data

Results flagged for a closer look

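For 2 genes the difference between the lines labelled high and low was not the same in the mutant and the wild-type pair, by a test of that difference. The interaction contrast was -0.52 for Fabp3 and -0.41 for Abhd5. For Fabp3 the high line minus the low line was -0.36 in the mutant pair and 0.67 in the wild-type pair, and for Abhd5 it was 0.30 in the mutant pair and 1.12 in the wild-type pair. Over its 25 alternatives the adjusted p ranged from 0.0119 to 0.228 for Fabp3 and from 0.0107 to 0.552 for Abhd5.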

How the results depend on the processing

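Of 631 alternative values of members called in a comparison, 532 still passed, 99 did not, and 0 changed sign. Of 1595 alternative values of members not called, 15 newly passed and 94 changed sign without a call. Counts of called members below are of 8 tested genes (the counts as reported were 4 for any line difference, 4 in WTD, 3 in D7E, 3 in D7F, 3 in WTA, 4 in the transfected lines, 0 for mutant against wild-type, 1 for high against low, 2 for the interaction, 1 for D7E against WTA and 0 for D7F against WTD). With limit values kept they were 2 in WTD, 1 in D7F and 0 for the interaction. With arrays centred they were 1 for mutant against wild-type and 1 for D7F against WTD, and with arrays centred and scaled 1 for the interaction and 1 for D7F against WTD. With all 15 cultures required, which leaves out Fabp5 and Plin2, they were 1 in D7E, 2 in the transfected lines, 1 for mutant against wild-type, 2 for high against low and 1 for D7F against WTD. With 1 dye array enough they were 2 in WTD and 0 for the interaction. On Cy5 arrays alone they were 2 in WTD, 0 in D7F, 0 for high against low, 0 for the interaction and 0 for D7E against WTA, and on Cy3 arrays alone 2 for any line difference, 1 in WTD, 0 for high against low and 0 for the interaction. With the IM2 sign turned the count was 5 in WTA. With poor arrays left out the counts were 1 in WTD, 1 in D7F and 1 for the interaction. With only the lines compared in the fit they were 0 in WTA, 2 in WTD, 1 in D7F and 0 for D7E against WTA. The count for the transfected lines was 3 in place of 4 with limit values kept, arrays centred and scaled, 1 dye array enough, Cy5 or Cy3 arrays alone, the IM2 sign turned or poor arrays left out. The D7E count was 2 in place of 3 under the same settings but centring and scaling, and with only the lines compared. Other counts that fell by 1 were those for D7F (2) with 1 dye array enough, Cy3 arrays alone or all 15 cultures required, for WTA (2) and WTD (3) with all 15 required, and for any line difference (3) with all 15 required or Cy5 arrays alone. The cause was not tested. Leaving out each culture in turn gave 2 to 5 in WTD, 2 to 4 in D7F, 3 to 4 in WTA, 2 to 3 in D7E, 3 to 4 in the transfected lines, 4 to 5 for any line difference, 0 to 2 for the interaction, 1 to 2 for high against low, 0 to 1 for mutant against wild-type and 0 to 1 for D7F against WTD.

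Whether the culture numbers pair the cultures was left undecided, since correlations of deviations between lines overlapped for same and different numbers. In part I, same-number pairs had r of -0.18 to 0.29 (median -0.01), and different-number pairs -0.32 to 0.25 (median 8.5e-05). In part II, same-number pairs had -0.16 to 0.41 (median 0.05), and different-number pairs -0.36 to 0.30 (median -0.01). An r over 0.1 was found for 8 of 30 same-number and 11 of 60 different-number pairs in part I. The part II counts were 7 of 30 and 8 of 60. With the replicate number as a block the interaction called 0 members (136 probes, against 230 without the block) and D7E against WTA called 72 probes in place of 159. Every other count of members was unchanged by the block.

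Counts over all probes also moved with the settings. They ran from 397 to 1792 for the transfected lines (1480 as reported), 181 to 1260 for any line difference (990), 344 to 1444 in D7E (1199), 83 to 758 in D7F (437), 14 to 1343 in WTA (1121), 138 to 1143 in WTD (683), 5 to 34 for mutant against wild-type (19), 7 to 71 for high against low (37), 37 to 437 for the interaction (230), 2 to 375 for D7E against WTA (159) and 14 to 102 for D7F against WTD (44). The share of calls that were higher was 71.9% with arrays centred for high against low (54.1% as reported) and 40.0% for mutant against wild-type (52.6% as reported), and with scaling added 68.8% and 32.0% for these comparisons and 24.8% for D7E against WTA (37.7% as reported). Signal over background is not used here, since the files hold ratios only.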
